A study of Mus musculus with 10 samples.

Results

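Amino acid breakdown and the urea cycle are carried by 51 genes here, chosen by name from the known enzymes of these pathways, with earlier results of these data known. They are 51 of the 41388 genes in the count table of the series, and all 51 were matched by symbol and tested in every comparison. They comprise 6 genes of the urea cycle, 4 of tyrosine, 7 of tryptophan, 4 of histidine, 9 of methionine, homocysteine and cysteine, and 5 of glutamine, glutamate and proline. A further 7 act on branched-chain amino acids and lysine, 5 are aminotransferases, 2 are serine and threonine dehydratases, and 2 act on pyrimidines and beta-alanine.

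Whole livers of 10 mice aged 10 weeks were sequenced. The 3 F1 males called matBFMI were born to BFMI females mated with B6N males, and the 3 called patBFMI came out of the reciprocal mating. Every one of these F1 animals was fed a high fat diet between weaning at day 21 and dissection at day 70, and the 3 males of a group came from different mothers. The BFMI group held 1 female and 1 male of BFMI860-12/Hber, an inbred Berlin fat mouse line in which juvenile obesity is a recessive trait, and the B6N group held 1 female and 1 male of C57BL/6NCrl, a lean inbred strain. The sample records put these inbred animals on a standard breeding diet, whereas the text of the study has them raised on a high fat diet. Lane 6 held all matBFMI libraries, lane 5 all patBFMI libraries, lane 1 the BFMI male, and lane 4 the remaining inbred libraries. Lane and direction of cross therefore cannot be told apart, and neither can lane and the step between F1 and inbred animals. Whether diet differed at that step is not settled by these sources.

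The liver is the main organ that disposes of amino acids eaten in excess of need. Aminotransferases and dehydratases take off the amino group, the carbon skeletons enter the citric acid cycle, gluconeogenesis or ketone body formation, and the nitrogen leaves as urea. The urea cycle starts in the mitochondria of hepatocytes around the portal vein with Cps1 and Otc and goes on in the cytosol with Ass1, Asl and Arg1, while Nags makes the activator of Cps1. Many of these enzymes are known to follow protein intake, glucagon and glucocorticoids.

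The liver libraries held 46988713 to 96023811 reads assigned to genes, with the BFMI male deepest. Albumin reached 36890.2 to 69829 CPM, which are counts relative to the library size after TMM scaling over the 10 libraries. Only within the F1 animals did patBFMI 1 stand apart, with a count in 32421 genes, where the remaining 5 had 22095 to 26694. Detection was similarly broad in the BFMI female and male (29942 and 34441 genes) and the B6N female and male (34572 and 31205 genes). Apart from patBFMI 1, fewer genes were thus detected in F1 than in inbred animals. The part of this difference in the comparison of F1 with inbred animals was not tested. Of 5 pancreatic acinar markers 4 were detected mainly in the B6N libraries. The lipase Pnlip was at 0.118 and 0.0504 CPM in the BFMI female and male, against 21.7 and 4.65 CPM in the B6N female and male, and at 0.114 CPM or less in the F1 libraries. Every member was far above the counting limit, since the lowest raw count of a member in a library was 240, for Sdsl in the B6N female. In whole tissue, fewer cells of a type and less RNA per cell cannot be told apart.

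As a group the pathway genes were abundant. The median member averaged 265 CPM over the 6 F1 libraries, against 7.03 CPM for the median of the 16797 genes tested there. The shares of all genes set beside the members below, by p or by overlap, were not matched for level. Together the 51 genes took 2.68% to 3.03% of assigned reads in matBFMI and 2.68% to 2.78% in patBFMI. The share was 2.66% and 2.04% in the BFMI female and male, and 2.81% and 2.14% in the B6N female and male. Between genes, levels were compared per length, on the authors' RPKM scale. Cps1, which condenses ammonia and bicarbonate in the first step of the urea cycle, was the highest of the 51, at 1084 RPKM on average over 10 libraries (lowest library 437, highest 1557). Next came Mat1a, which makes S-adenosylmethionine from methionine, at 789 RPKM (576 to 1132), and Gnmt, which uses that methyl donor to methylate glycine, at 754 RPKM (525 to 1063). Hpd of tyrosine breakdown averaged 737 RPKM (526 to 1143), Arg1 687 RPKM (432 to 791) and Cdo1, the cysteine dioxygenase, 681 RPKM (527 to 891). Among these 6 genes the ranges of neighbours in the order overlap. The order counts reads at each gene's own locus. It therefore understates Ass1, Ahcy and Bhmt if reads at their near-identical copies, described below, belong to them. Ass1 averaged 66.8 RPKM at its own locus, and its rank with the copy added was not computed. At the low end stood Mccc1, a subunit of methylcrotonyl-CoA carboxylase of leucine breakdown, at 2.72 RPKM (2.38 to 3.27), Sdsl at 4.97 RPKM and Afmid at 6.80 RPKM.

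**Figure D1:**
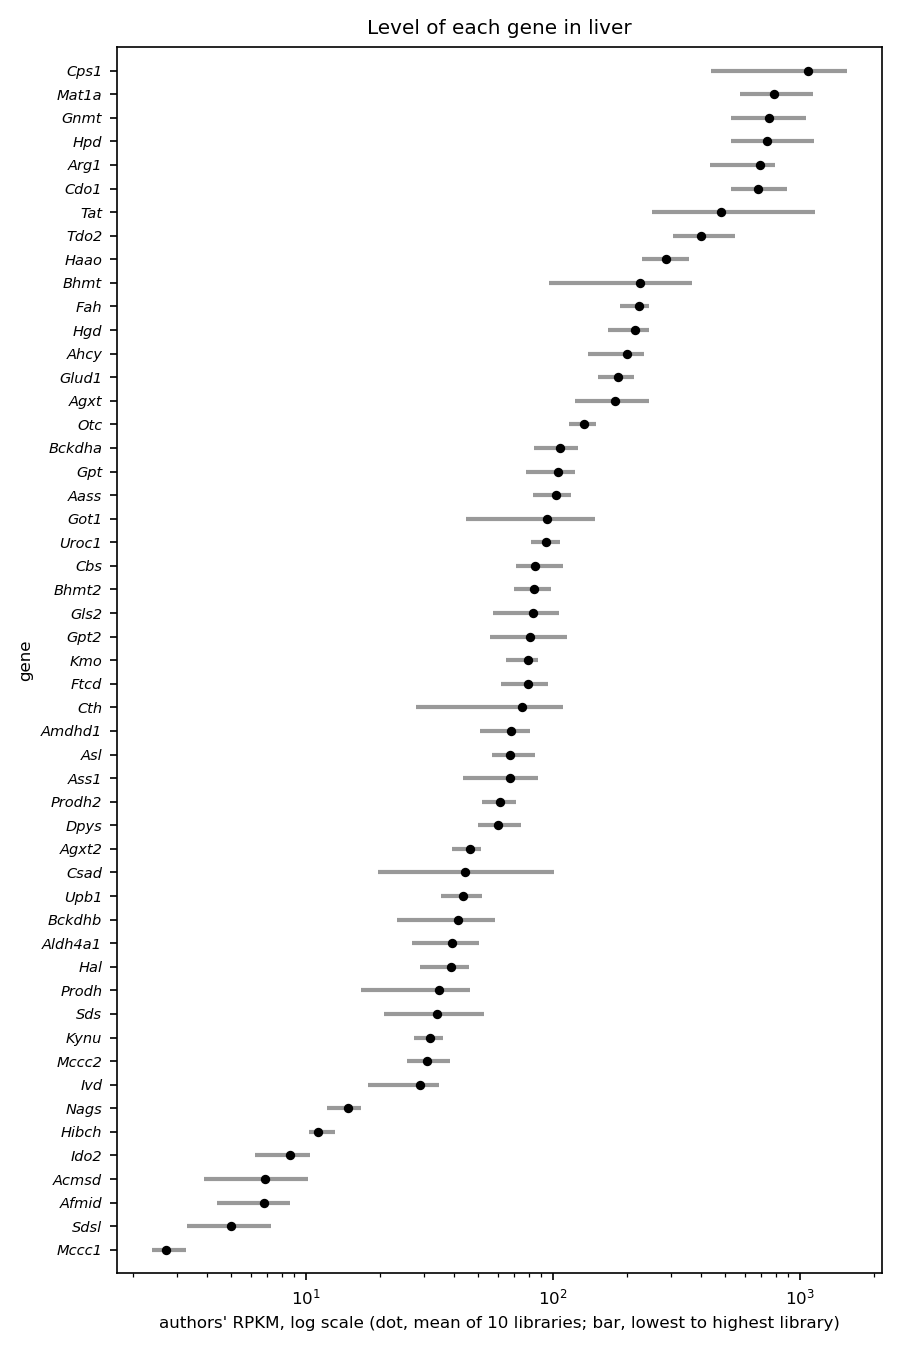
Level of each of the 51 genes, with the authors' RPKM on a log axis (dot, mean of 10 libraries; bar, lowest to highest library). Levels ran between 2.72 RPKM for Mccc1 and 1084 RPKM for Cps1. Reads at near-identical copies of Ass1, Ahcy and Bhmt are not included.

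For 3 members most reads lay at near-identical copies elsewhere in the genome. Ass1, which joins citrulline and aspartate, had 154, 179 and 217 CPM in matBFMI 1 to 3, 122, 199.7 and 170.2 CPM in patBFMI 1 to 3, 173 and 96.0 CPM in the BFMI female and male and 135 and 114 CPM in the B6N female and male. The processed pseudogene Gm5424 (chr10:62071123-62072362, GRCm38), 99.5% identical to an Ass1 transcript over 1240 bases, had 1524 to 2882 CPM in the same libraries. The Ass1 locus thus held only 5.19% to 7.33% of the summed reads. Ahcy, which hydrolyses S-adenosylhomocysteine, held 33.3% to 34.2% of its sum with Gm4737 and Gm9826, and Bhmt, which remethylates homocysteine with betaine, held 36.6% to 39.4% of its sum with Gm5096 and Bhmt-ps1. The shares of Ahcy and Bhmt varied little between libraries, whereas that of Ass1 was lowest in the B6N female and highest in matBFMI 3. Reads of the 3 genes cannot be assigned to a locus with certainty. Calls on Ahcy and Bhmt, and the log2 fold changes of Ass1 that involve F1 males, are therefore given also with the copies added. This alternative was chosen after the data were seen. RPKM levels and the spread between libraries are of the locus alone.

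Spread between libraries differed widely among the members. The highest library was 1.79-fold above the lowest for the median member, with the steadiest genes at 1.36-fold for Cbs and Dpys and 1.39-fold for Cdo1 and Otc. The most variable were Csad at 5.01-fold, Cth at 3.86-fold, Bhmt at 3.84-fold, Prodh at 3.16-fold, Got1 at 3.13-fold and Tat at 3.01-fold. Csad, which forms hypotaurine on the way to taurine, was singled out after its values were seen. It had 109, 59.5 and 103 CPM in matBFMI 1 to 3, against 219, 75.5 and 57.7 CPM in patBFMI 1 to 3. It was low in both inbred females, at 43.7 and 48.7 CPM in the BFMI and B6N females, against 174 and 102 CPM in the BFMI and B6N males. Tat, the tyrosine aminotransferase, was at 648 and 598 CPM in the BFMI female and male, against 1800.2 and 773 CPM in the B6N female and male, so the B6N female stood above the other inbred animals.

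**Figure D2:**
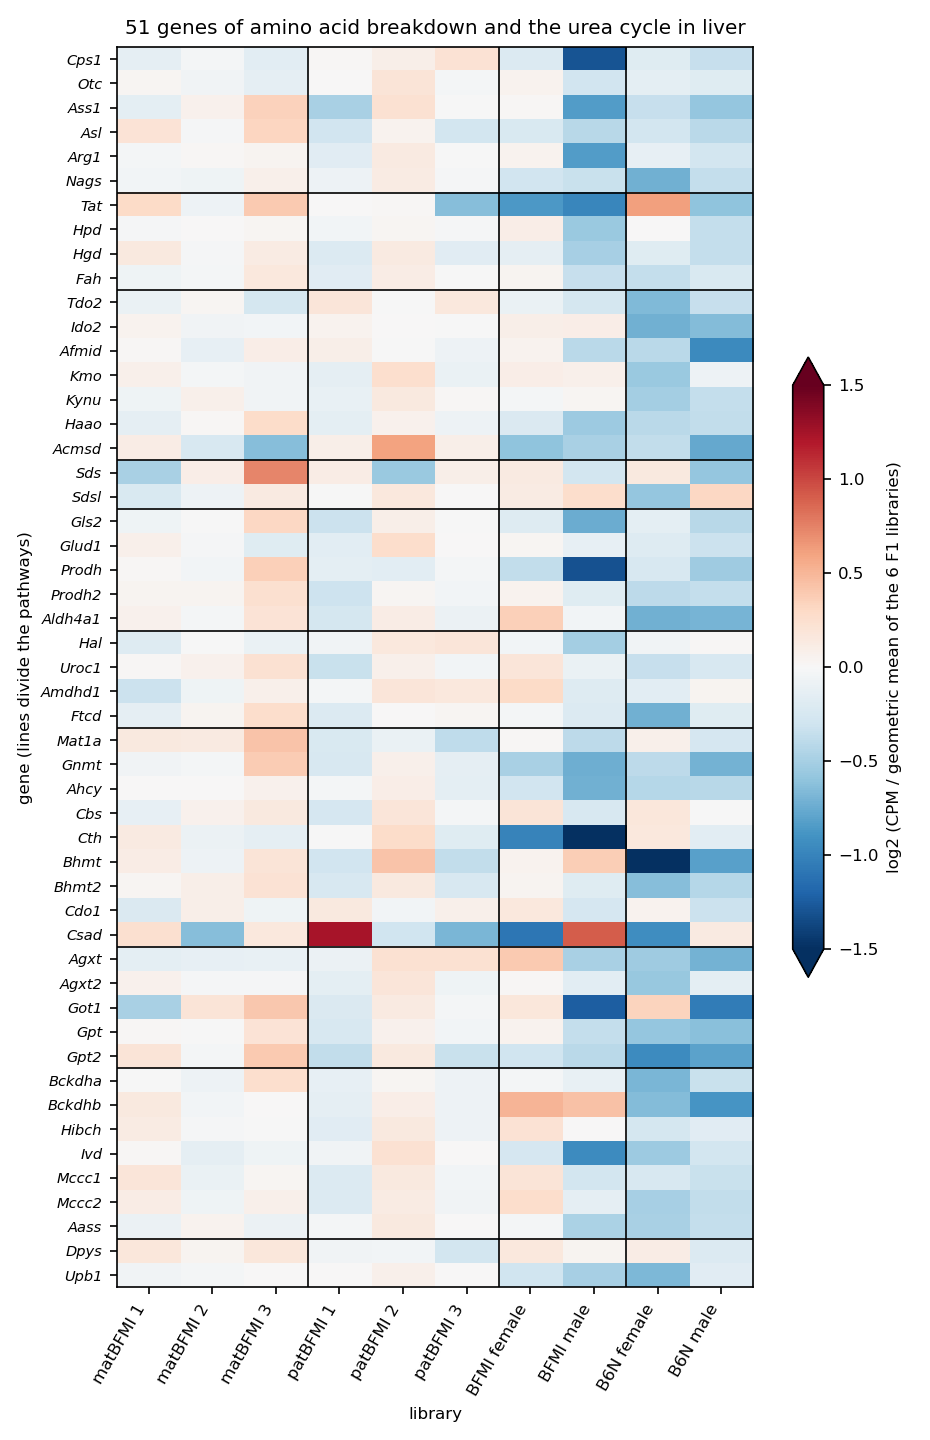
The 51 genes (rows, by pathway) in the 10 libraries (columns), coloured by the log2 ratio of CPM to the geometric mean of the 6 F1 libraries. The BFMI male column is mostly blue, with 31 of 51 genes below every F1 library, and the B6N female and male columns have 34 and 37 such genes against 11 for the BFMI female.

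The first comparison asked whether the direction of the cross changed these pathways in F1 males. None of the 51 genes passed the test, and the log2 fold changes of matBFMI over patBFMI lay between -0.54 and 0.43. The quasi-likelihood test of edgeR with Benjamini-Hochberg adjustment over 16797 genes called 0.143% of all genes (0.0953% higher and 0.0476% lower in matBFMI) at an adjusted p of 0.05 and 0 members. At an unadjusted p under 0.05 stood 6 members (11.8%), against 9.85% of all genes. Libraries of the F1 groups did not overlap for 5 members (9.80%), against 14.0% of all genes. Of these, 3 were higher in matBFMI (8.63% of all genes) and 2 lower (5.35% of all genes). Both shares are near the background or below it. The median log2 fold change of matBFMI over patBFMI was 0.021 for the members and -0.005 for all genes. It was positive for 28 members (against 48.9% of all genes) and negative for 23 under TMM, whereas it was positive for 36 and negative for 15 when libraries were scaled by their size only.

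Mat1a had the smallest p of the 51. It had 2796, 2782 and 3421 CPM in matBFMI 1 to 3, against 2161, 2369.8 and 1941 CPM in patBFMI 1 to 3, a mean of 2999.8 ± 365 CPM in matBFMI and 2157 ± 215 CPM in patBFMI (SD, n = 3 each). All 3 matBFMI livers lay above all 3 patBFMI livers, but the log2 fold change of 0.43 ± 0.11 (SE), adjusted p = 0.25 by edgeR (95% interval 0.17 to 0.69) did not pass. DESeq2 gave an adjusted p of 0.038 and edgeR without a filter on low counts 0.0028, while leaving out single libraries gave 0.16 to 0.62. Acmsd, which directs an intermediate of tryptophan breakdown away from NAD synthesis, had 22.7, 17.8 and 13.5 CPM in matBFMI 1 to 3, against 22.3, 31.9 and 22.4 CPM in patBFMI 1 to 3. The groups overlap in this gene (log2 fold change -0.54 ± 0.19 (SE), adjusted p = 0.40 by edgeR), and its adjusted p was 0.0020 without a filter.

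In the urea cycle, Cps1 and Asl stood on opposite sides. Cps1 (carbamoyl phosphate synthase, chr1:67123026-67231259) had 5677, 6123 and 5620.4 CPM in matBFMI 1 to 3, against 6341, 6649 and 7291 CPM in patBFMI 1 to 3, so every matBFMI liver lay below every patBFMI liver (log2 fold change -0.26 ± 0.08 (SE), adjusted p = 0.35 by edgeR). On the deposited RPKM the sign turned, with a log2 difference of 0.37 at a pseudocount of 1, so the direction for Cps1 depends on the scale. Asl, which splits argininosuccinate into arginine and fumarate, had 389, 333 and 420.4 CPM in matBFMI 1 to 3, against 275, 349 and 279 CPM in patBFMI 1 to 3. Its groups overlap, as patBFMI 2 lay above matBFMI 2 (log2 fold change 0.30 ± 0.12 (SE), adjusted p = 0.45 by edgeR). The other 4 urea cycle genes had log2 fold changes of -0.15 for Otc, -0.06 for Nags, -0.02 for Arg1 and 0.13 for Ass1. With the copy added, Ass1 had 2594, 2814 and 2962 CPM in matBFMI 1 to 3, against 2217, 3082 and 2893 CPM in patBFMI 1 to 3, and its log2 fold change was -0.003 ± 0.11 (SE).

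Among the other pathways, 1 of 7 tryptophan genes, 3 of 4 tyrosine genes, 4 of 5 genes of glutamine, glutamate and proline, 6 of 9 of methionine, homocysteine and cysteine and 5 of 7 of branched-chain amino acids and lysine had a positive log2 fold change. The 18 mitochondrial members, with 10 positive, and the 33 members outside the mitochondrion, with 18 positive, gave similar splits.

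Agxt, the peroxisomal enzyme that transaminates glyoxylate to glycine, had 299, 304 and 306 CPM in matBFMI 1 to 3, against 309.8, 387 and 387 CPM in patBFMI 1 to 3. All 3 matBFMI livers lay below all 3 patBFMI livers, the lowest of which, patBFMI 1, was only just higher (log2 fold change -0.29 ± 0.10 (SE), adjusted p = 0.38 by edgeR). Hal, which takes ammonia off histidine, had 197, 223 and 210.1 CPM in matBFMI 1 to 3, against 216, 251 and 255 CPM in patBFMI 1 to 3, with overlapping groups (log2 fold change -0.23 ± 0.10 (SE), adjusted p = 0.50 by edgeR). Beside these values, Kupffer cell and macrophage markers had lower values in matBFMI. All 11 had a negative log2 fold change (8 with an unadjusted p under 0.05, none past the test), and their summed level was 224 to 263 CPM in matBFMI and 271 to 298 CPM in patBFMI. Of 10 hepatocyte markers 4 had a positive and 6 a negative log2 fold change, and 4 were lower at an unadjusted p under 0.05. Of 8 pericentral markers 3 were positive and 5 negative, with 2 higher and 3 lower at that p by edgeR. At that p stood 9.85% of all genes, and none of these markers passed the test. The part of the marker genes in these differences was not tested.

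**Figure D3:**
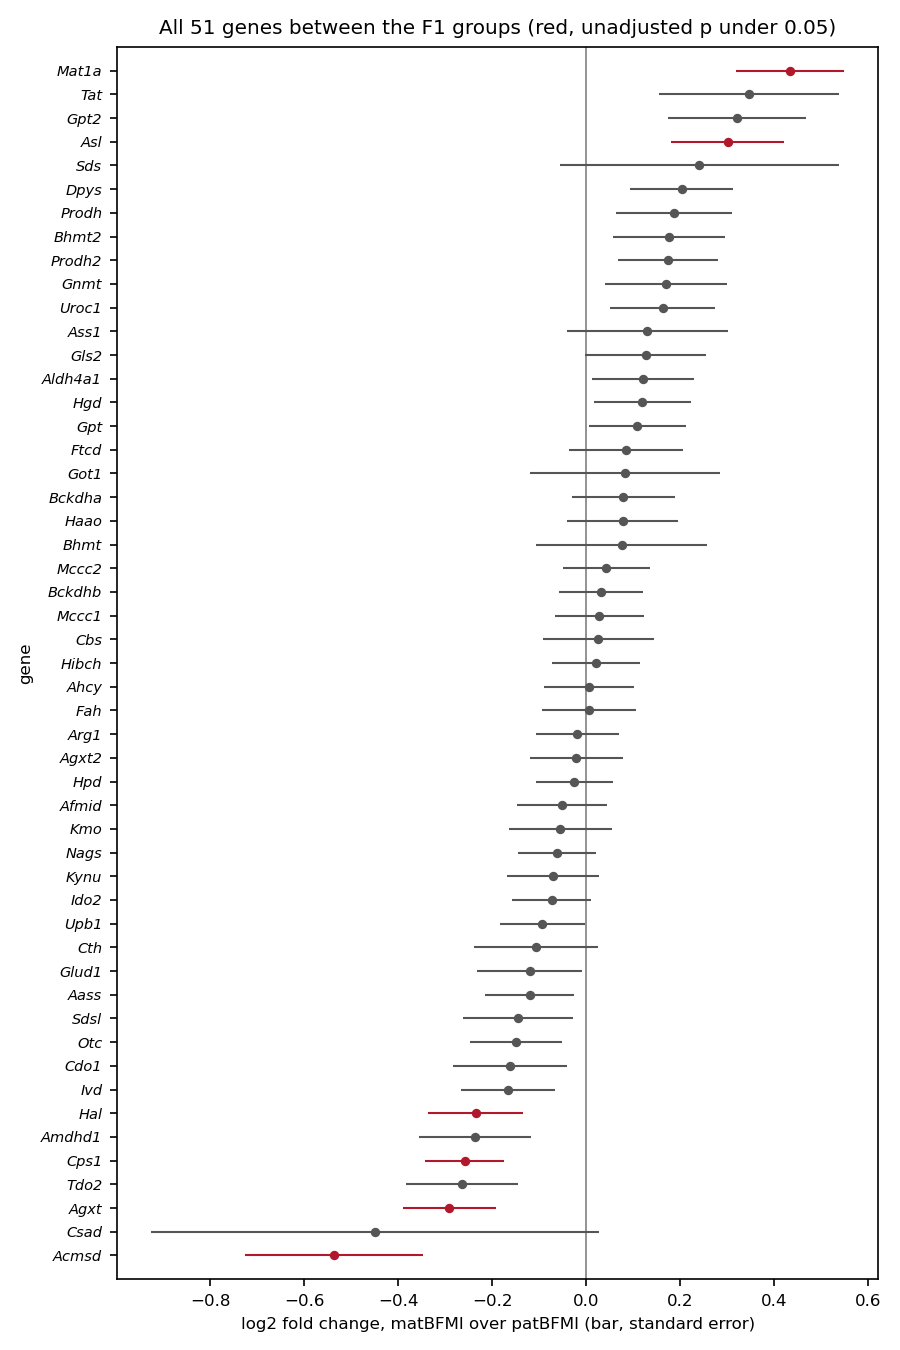
Log2 fold change of matBFMI over patBFMI for each of the 51 genes (dot) with its standard error (bar), sorted by size. Red marks the 6 genes with an unadjusted p under 0.05, which are Mat1a and Asl on the right and Hal, Cps1, Agxt and Acmsd on the left, and 0 genes pass after adjustment.

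Related lists outside the 51 genes held no call between the F1 groups by edgeR. Of 60 tested genes that act elsewhere in amino acid breakdown, 0 passed and 10 had an unadjusted p under 0.05, among them Glul (log2 fold change 0.35 ± 0.11 (SE), adjusted p = 0.33) and Oat (0.47 ± 0.15 (SE), adjusted p = 0.33), both by edgeR. Of 18 carriers of amino acids and urea cycle intermediates 0 passed (3 at an unadjusted p under 0.05), and so did 0 of 15 known regulators (1 at an unadjusted p under 0.05). Among 11 genes that respond to amino acid shortage, 0 passed and 2 were at an unadjusted p under 0.05 by edgeR. These were Fgf21, a hormone secreted by the liver, with 4.08, 4.63 and 7.54 CPM in matBFMI 1 to 3, against 1.71, 2.92 and 2.74 CPM in patBFMI 1 to 3, and Trib3 (log2 fold change -0.94 ± 0.30 (SE), adjusted p = 0.34 by edgeR). DESeq2 called 1 member and 305 genes in all in this comparison.

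BFMI livers had more Bckdhb, Bhmt, Aldh4a1 and Ido2 and less Cth than B6N livers, in the comparison of the parental strains. Of the 51 members 4 were higher and 1 was lower in BFMI, which is 9.80% of them, against 6.67% of the 19974 genes tested (3.61% higher and 3.05% lower) by edgeR in a fit of all 10 libraries with a term for sex. At an unadjusted p under 0.05 stood 17 members (33.3%), against 18.3% of all genes. Libraries of the strains did not overlap for 20 members, 18 of them higher in BFMI, against 43.0% of all genes in either direction, 25.7% higher and 17.3% lower. The median log2 fold change of BFMI over B6N was 0.06 for the members and -0.04 for all genes. With 1 animal of each sex per strain, most of the spread in this fit comes from the F1 males.

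Bckdhb (ENSMUSG00000032263, chr9:83925145-84124240) encodes the beta subunit of the dehydrogenase that commits branched-chain keto acids to breakdown. It had 106 and 101 CPM in the BFMI female and male, against 47.6 and 40.2 CPM in the B6N female and male, a log2 fold change of 1.15 ± 0.13 (SE), adjusted p = 0.00038 by edgeR. The 6 F1 males lay between the strains, at 67.7 to 82.1 CPM (median 73.6 CPM). Bckdha, the partner subunit of the same dehydrogenase, had 202 and 190.1 CPM in the BFMI female and male, against 128 and 163 CPM in the B6N female and male, above B6N in both BFMI animals without passing the test (log2 fold change 0.35 ± 0.14 (SE), adjusted p = 0.22 by edgeR). Exons of Bckdha share 61.7% of their bases with B3gnt8 on the opposite strand, which itself had 0.44 to 1.27 CPM. Of the 7 genes of branched-chain amino acids and lysine, 6 had a positive log2 fold change, and 1 passed. After Bckdhb the highest was 0.41 for Mccc2, and the negative one was -0.28 for Ivd, which oxidises isovaleryl-CoA of leucine breakdown.

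Cth (ENSMUSG00000028179, chr3:157894248-157925077), the cystathionase that releases cysteine in the last step of transsulfuration, was the only member called lower in BFMI in this fit. It had 96.4 and 60.6 CPM in the BFMI female and male, against 216 and 173 CPM in the B6N female and male (log2 fold change -1.43 ± 0.16 (SE), adjusted p = 0.00055 by edgeR). In F1 males Cth stood at 170.5 to 234 CPM (median 187 CPM), near the level of the B6N animals and above both BFMI animals. Cbs, which forms the cystathionine that Cth cleaves, had 324 and 239.7 CPM in the BFMI female and male, against 318 and 281 CPM in the B6N female and male, and its strains overlap.

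Bhmt (ENSMUSG00000074768, chr13:93616675-93637961) had 1430.3 and 1779 CPM in the BFMI female and male, against 482 and 783 CPM in the B6N female and male, a log2 fold change of 1.29 ± 0.23 (SE), adjusted p = 0.0076 by edgeR. With its copies added, Bhmt had 3719.6 and 4510.1 CPM in the BFMI female and male, against 1245 and 2052 CPM in the B6N female and male (log2 fold change 1.27 ± 0.22 (SE), adjusted p = 0.0064 by edgeR). F1 males had 1062 to 1849 CPM (median 1393 CPM) at the Bhmt locus and were all above both B6N animals. The related Bhmt2, which uses S-methylmethionine, had 233 and 198 CPM in the BFMI female and male, against 145 and 168 CPM in the B6N female and male (log2 fold change 0.37 ± 0.16 (SE), adjusted p = 0.24 by edgeR).

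Ido2 (ENSMUSG00000031549, chr8:24531892-24576333), a dioxygenase that opens the ring of tryptophan, had 35.0 and 35.1 CPM in the BFMI female and male, against 19.9 and 21.0 CPM in the B6N female and male (log2 fold change 0.69 ± 0.10 (SE), adjusted p = 0.0026 by edgeR). The F1 males, at 31.6 to 34.1 CPM (median 32.8 CPM), stood close to the BFMI level. Tdo2, the abundant dioxygenase for the same step in liver, had 1425 and 1277 CPM in the BFMI female and male, against 969.8 and 1201 CPM in the B6N female and male and did not pass (log2 fold change 0.23 ± 0.15 (SE), adjusted p = 0.51 by edgeR). Of 7 tryptophan genes, 5 had a positive log2 fold change, 1 passed, and BFMI lay wholly above B6N in 4, against 25.7% of all genes.

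Aldh4a1 (ENSMUSG00000028737, chr4:139622866-139649690), which oxidises the intermediate of proline breakdown to glutamate, had 265 and 201 CPM in the BFMI female and male, against 126 and 128 CPM in the B6N female and male (log2 fold change 0.77 ± 0.15 (SE), adjusted p = 0.011 by edgeR). F1 males had 173 to 239 CPM (median 210.2 CPM). The gene shares 32.5% of its exon bases with the read-through gene Gm21969, which had 0.04 to 0.14 CPM. Prodh, which acts just before it on proline, had 106 and 55.5 CPM in the BFMI female and male, against 116 and 94.8 CPM in the B6N female and male and did not pass (log2 fold change -0.54 ± 0.17 (SE), adjusted p = 0.095 by edgeR).

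**Figure D4:**
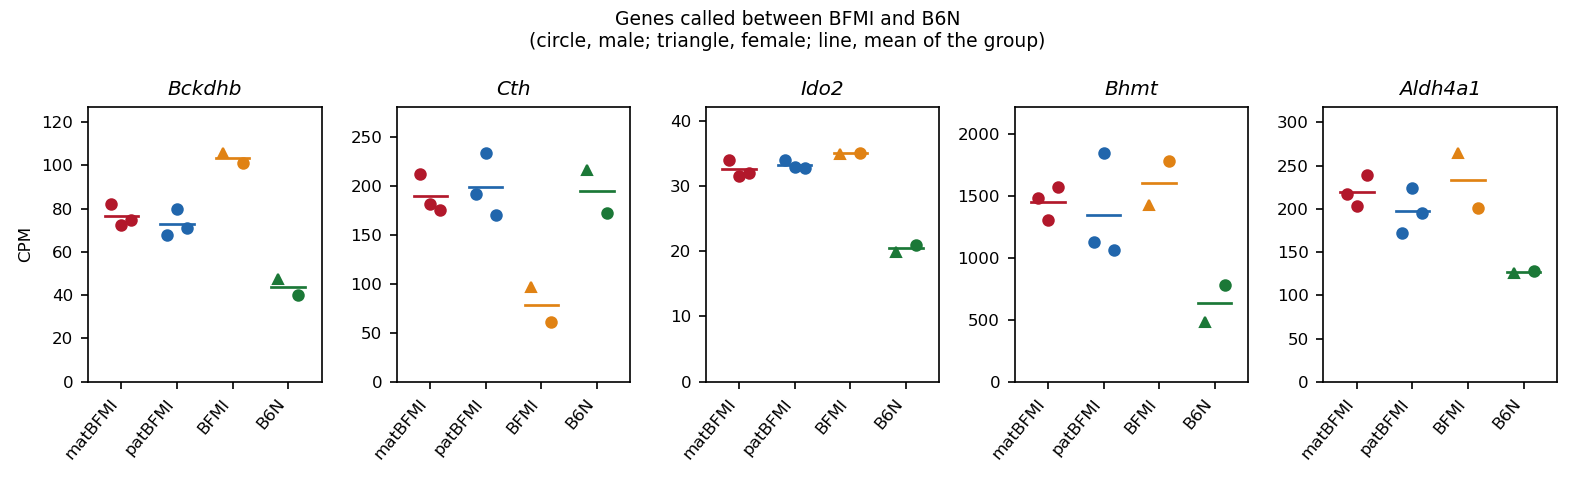
CPM in each library of the 5 genes called between BFMI and B6N (circle, male; triangle, female; line, group mean; axes start at 0). The F1 males lie between the strains for Bckdhb, beside B6N for Cth and near BFMI for Ido2.

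Without a call, the urea cycle had 1 of 6 genes with a positive log2 fold change between the strains, histidine breakdown 3 of 4 and the aminotransferases 4 of 5. Of the 18 mitochondrial members 13 were positive and 2 passed, and of the 33 others 16 were positive, 2 passed higher and 1 lower. Tat of tyrosine breakdown, at the CPM given above, lay lower in both BFMI animals than in both B6N animals and did not pass (log2 fold change -1.01 ± 0.31 (SE), adjusted p = 0.089 by edgeR). Its log2 fold change was -1.60 without the BFMI male and -1.64 without the B6N male. Each of these values rests on the same pair, the BFMI female against the B6N female. Tat was called lower with the inbred libraries only and without a filter. Cps1 had 5450.5 and 2552 CPM in the BFMI female and male, against 5538 and 4927 CPM in the B6N female and male and did not pass either (log2 fold change -0.57 ± 0.17 (SE), adjusted p = 0.073 by edgeR). Its log2 fold change was -0.97 without the BFMI female or without the B6N female, and -0.96 with males only. Each of these values rests on the same pair, the BFMI male against the B6N male. Cps1 was called lower with at least 50 counts and by DESeq2.

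The calls for Bckdhb and Cth held in all 10 fits that left out 1 library. Ido2 lost its call without the B6N male (adjusted p 0.0505 by edgeR). Bhmt and Aldh4a1 lost theirs without any of the 4 inbred libraries (adjusted p 0.064 to 0.10 for Bhmt and 0.051 to 0.16 for Aldh4a1), and without the B6N male the 3 calls were Bckdhb, Cth and Tat. Pancreatic acinar markers were lower in BFMI (4 of 5 called) and haemoglobin genes were higher (4 of 5 blood cell markers called). Their part in the strain differences was not tested. Among 11 Kupffer cell and macrophage markers 5 were called lower in BFMI, with a sum of 343 and 270 CPM in the BFMI female and male, against 426 and 448 CPM in the B6N female and male. Whether BFMI reads align less well to a reference built from C57BL/6J was not tested.

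Of 61 tested genes that act elsewhere in amino acid breakdown, 8 were higher and 2 lower in BFMI. Higher were Gldc, Shmt1 and Shmt2 of glycine and serine metabolism, with Gldc at 274 and 268 CPM in the BFMI female and male, against 135 and 126 CPM in the B6N female and male (log2 fold change 0.96 ± 0.16 (SE), adjusted p = 0.0045) and Shmt2 at 117 and 127 CPM in the BFMI female and male, against 65.4 and 72.2 CPM in the B6N female and male (0.74 ± 0.13 (SE), adjusted p = 0.0080), both by edgeR. Hoga1, Acat1, Asrgl1 and Dhtkd1 were also called in this direction. Gcsh of the glycine cleavage system (-0.70 ± 0.17 (SE), adjusted p = 0.032) and the kynurenine aminotransferase Kyat1 (-0.73 ± 0.13 (SE), adjusted p = 0.0066) were lower in BFMI by edgeR. Of 19 carriers, Slc3a1 (log2 fold change -1.30 ± 0.21 (SE), adjusted p = 0.0047) and Slc1a2 (-0.71 ± 0.18 (SE), adjusted p = 0.038) were lower in BFMI by edgeR, and 0 of 15 regulators passed (2 at an unadjusted p under 0.05).

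The third comparison set F1 males against the mean of the parental strains, at the level of males. F1 livers had more Prodh, Cth, Gnmt, Ahcy, Cps1, Got1, Afmid and Hpd, and most of the members that did not pass had values above the inbred mean as well. Of the 51 members 8 were higher in F1 males and 0 were lower, which is 15.7%, against 2.05% of all 19974 genes in either direction, 1.14% higher and 0.916% lower, by edgeR. The log2 fold change was positive for 49 members, against 50.8% of all genes, with a median of 0.33 for members and 0.006 for all genes. At an unadjusted p under 0.05 stood 35 members (68.6%), against 16.6% of all genes. F1 libraries lay wholly above the 4 inbred libraries for 8 members and below them for none, against 5.68% of all genes in either direction, 2.93% above and 2.75% below. Lane, and diet if it differed as the sample records have it, cannot be told apart from this contrast.

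This result rests on the BFMI male, the only library of lane 1. Without it 0 of 51 members and 13 of 18998 genes were called by edgeR, although 45 members kept a positive log2 fold change and the median was 0.23. Calls numbered 3 without matBFMI 2, 4 without matBFMI 1, matBFMI 3 or the B6N male, 5 without patBFMI 3 and 13 without patBFMI 1. In the BFMI male 18 of the 51 members were at their lowest of the 10 libraries, and in the B6N female 20 were. With the copies added, 9 members were called, the 8 together with Ass1.

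Prodh (ENSMUSG00000003526, chr16:18060357-18090203), the proline dehydrogenase, had 138, 134 and 175 CPM in matBFMI 1 to 3 and 124, 123 and 135 CPM in patBFMI 1 to 3, against 106 and 55.5 CPM in the BFMI female and male and 116 and 94.8 CPM in the B6N female and male. All 6 F1 males were above all 4 inbred animals (log2 fold change 0.93 ± 0.14 (SE), adjusted p = 0.015 by edgeR), and without the BFMI male the value was 0.65 (adjusted p = 0.37). Gls2, the liver glutaminase that frees ammonia from glutamine, had 257 to 399.9 CPM (median 322 CPM) in F1 males, against 282 and 193 CPM in the BFMI female and male and 292 and 241 CPM in the B6N female and male, and did not pass (log2 fold change 0.60 ± 0.14 (SE), adjusted p = 0.063 by edgeR).

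Cps1 had 5677, 6123 and 5620.4 CPM in matBFMI 1 to 3 and 6341, 6649 and 7291 CPM in patBFMI 1 to 3, against 5450.5 and 2552 CPM in the BFMI female and male and 5538 and 4927 CPM in the B6N female and male (log2 fold change 0.81 ± 0.14 (SE), adjusted p = 0.022 by edgeR). The BFMI male was far below every other library, and without it the log2 fold change was 0.41 (adjusted p = 0.39). Without matBFMI 1, 2 or 3 the adjusted p of Cps1 was 0.057 to 0.069. All 6 urea cycle genes had a positive log2 fold change with an unadjusted p under 0.05. After Cps1 they were 0.73 for Ass1, 0.56 for Arg1, 0.42 for Asl, 0.35 for Nags and 0.24 for Otc. Ass1 with its copy had 2594, 2814 and 2962 CPM in matBFMI 1 to 3 and 2217, 3082 and 2893 CPM in patBFMI 1 to 3, against 2720.0 and 1620.0 CPM in the BFMI female and male and 2598 and 1875 CPM in the B6N female and male (log2 fold change 0.67 ± 0.12 (SE), adjusted p = 0.027 by edgeR).

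In the methionine cycle Gnmt and Ahcy were called. Gnmt (ENSMUSG00000002769, chr17:46725664-46729168) had 1054, 1067 and 1419.8 CPM in matBFMI 1 to 3 and 926, 1145 and 992 CPM in patBFMI 1 to 3, against 777 and 657 CPM in the BFMI female and male and 828 and 666 CPM in the B6N female and male. Every F1 male exceeded every inbred animal (log2 fold change 0.74 ± 0.14 (SE), adjusted p = 0.032 by edgeR). Ahcy (ENSMUSG00000027597, chr2:155059310-155074497), which removes the product that Gnmt makes, had 656, 655 and 685 CPM in matBFMI 1 to 3 and 639.9, 699.6 and 593 CPM in patBFMI 1 to 3, against 534 and 398 CPM in the BFMI female and male and 484 and 489 CPM in the B6N female and male, again without overlap (log2 fold change 0.58 ± 0.11 (SE), adjusted p = 0.033 by edgeR). With its copies Ahcy gave a log2 fold change of 0.57 ± 0.11 (SE), adjusted p = 0.030 by edgeR. Gnmt and Ahcy each kept the call in 4 of the 10 fits without 1 library (adjusted p up to 0.30 for Gnmt and 0.56 for Ahcy, both without the BFMI male). They lost it without matBFMI 1, 2 or 3, patBFMI 3, the BFMI male or the B6N male, and Gnmt also with library size only (adjusted p 0.051). Of 9 genes of this pathway 8 had a positive log2 fold change and 3 passed.

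Cth was called here as well, with the F1 males of 170.5 to 234 CPM (median 187 CPM) against the low BFMI and the high B6N values given above (log2 fold change 0.93 ± 0.14 (SE), adjusted p = 0.014 by edgeR). The F1 males and the B6N animals overlap, and only the BFMI animals lay below the F1 range. Without the BFMI male Cth had an adjusted p of 0.30, and without the B6N male 0.074.

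Afmid (ENSMUSG00000017718, chr11:117825924-117839908), the formamidase that yields kynurenine, had 26.1, 23.8 and 27.7 CPM in matBFMI 1 to 3 and 27.5, 25.9 and 24.7 CPM in patBFMI 1 to 3, against 26.9 and 19.5 CPM in the BFMI female and male and 19.6 and 13.4 CPM in the B6N female and male. The BFMI female lay within the F1 range (log2 fold change 0.69 ± 0.10 (SE), adjusted p = 0.014 by edgeR). Without the BFMI male or the B6N male its adjusted p was 0.15 and 0.13. Afmid shares exon bases with the read-through gene Gm20708, at up to 0.02 CPM, and with Tk1, which at 7.43 to 27.3 CPM was as abundant as Afmid itself. Hpd (ENSMUSG00000029445, chr5:123171807-123182727), which oxidises hydroxyphenylpyruvate in tyrosine breakdown, had 1597, 1615 and 1652 CPM in matBFMI 1 to 3 and 1572, 1649 and 1589 CPM in patBFMI 1 to 3, against 1723 and 1100.0 CPM in the BFMI female and male and 1624 and 1255 CPM in the B6N female and male. Both inbred males were below the F1 males, and the inbred females were above at least 4 of the 6 F1 males (log2 fold change 0.46 ± 0.09 (SE), adjusted p = 0.036 by edgeR). Hpd kept the call in 3 of the 10 fits without 1 library, without patBFMI 2, the BFMI female or the B6N female, and lost it without a filter (adjusted p 0.14).

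Got1 (ENSMUSG00000025190, chr19:43499752-43524605), the cytosolic aspartate aminotransferase, had 186, 296 and 345 CPM in matBFMI 1 to 3 and 224, 284 and 254 CPM in patBFMI 1 to 3, against 293 and 110.2 CPM in the BFMI female and male and 329 and 125 CPM in the B6N female and male. Its log2 fold change of 1.18 ± 0.21 (SE), adjusted p = 0.024 by edgeR sets F1 males against inbred males, and the inbred females lay within the F1 range. Without matBFMI 2, the BFMI male or the B6N male its adjusted p was 0.054, 0.31 and 0.17. The remaining aminotransferases followed without passing, with 0.62 for Gpt2, 0.60 for Agxt, 0.50 for Gpt and 0.16 for Agxt2 as log2 fold changes. All 7 tryptophan genes, all 4 histidine genes and all 7 genes of branched-chain amino acids and lysine had a positive log2 fold change, with medians of 0.32, 0.19 and 0.26. The lowest values of the 51 were -0.38 for Csad and -0.28 for Sdsl, the 2 members with a negative sign.

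**Figure D5:**
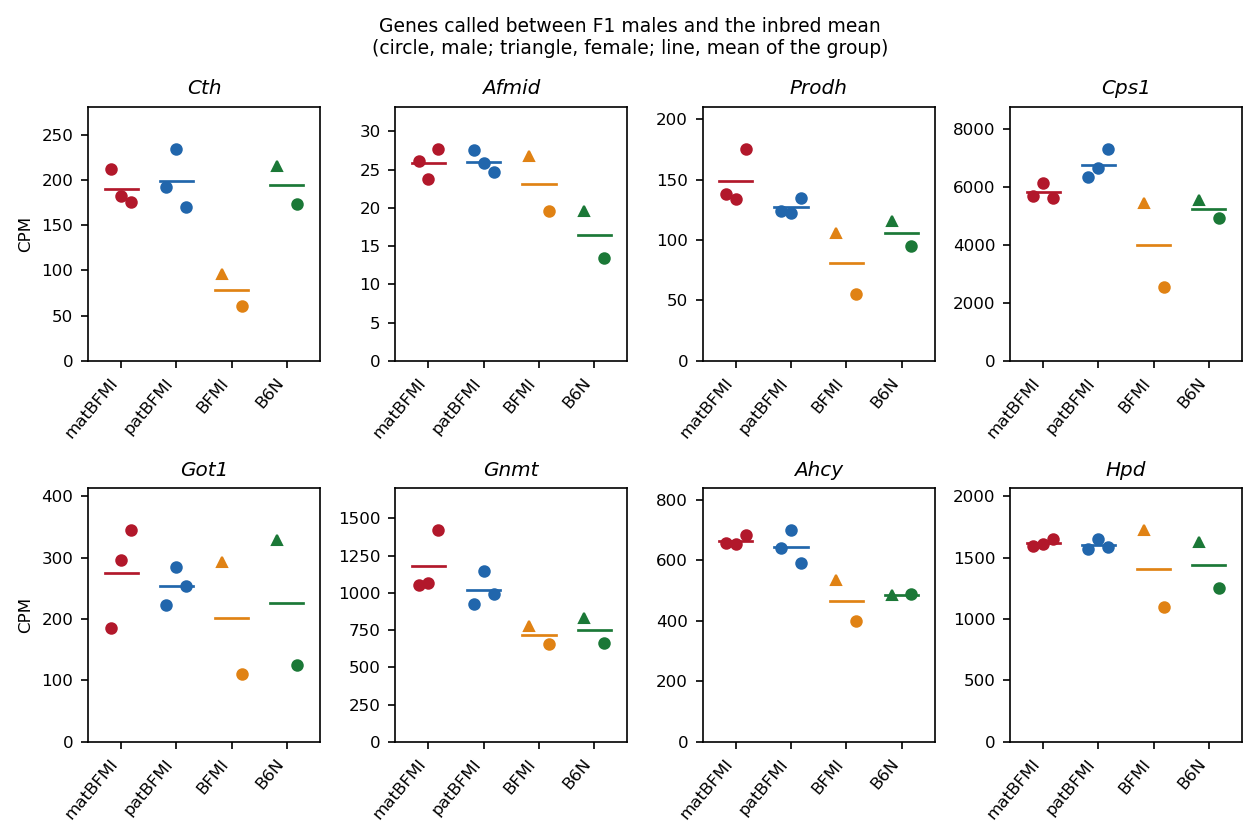
CPM in each library of the 8 genes called between F1 males and the inbred mean (circle, male; triangle, female; line, group mean; axes start at 0). The F1 males lie above all inbred animals for Prodh, Cps1, Gnmt and Ahcy, and the inbred females reach the F1 range for Got1 and Hpd.

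Promoters of the called genes are shown because these genes were called between F1 males and the inbred mean. RefSeq (GRCm38.p6) gave an entry for 38 of the 51 members and for 6 of these 8. The 250 bases before the start were searched on both strands for AGAACA (only a part of a glucocorticoid receptor element). Also searched were TGACG (the core of a cAMP response element) and TGATGNAA (a composite site of C/EBP and ATF4). The search further took in TATAAA (the TATA box), CCAAT (the CCAAT box) and, as an HNF4 type repeat, CAAAGTCCA. Matches were found in Got1, Gnmt and Ahcy, and none of these letters stood in the windows of Hpd, Afmid and Prodh. The RefSeq start used for Prodh lies 1013 bases inside the gene as GENCODE places it. The bases before the GENCODE start of Prodh were not searched. The sequences run 5′ to 3′ on the strand of the gene, which is the minus strand in each case, with matches in capitals.
Got1 (chr19:43524606-43524855): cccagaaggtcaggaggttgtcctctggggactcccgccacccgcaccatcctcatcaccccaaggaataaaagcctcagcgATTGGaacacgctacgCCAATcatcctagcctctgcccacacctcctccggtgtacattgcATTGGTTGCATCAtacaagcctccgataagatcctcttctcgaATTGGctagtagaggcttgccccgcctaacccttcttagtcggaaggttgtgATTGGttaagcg
Gnmt (chr17:46729166-46729415): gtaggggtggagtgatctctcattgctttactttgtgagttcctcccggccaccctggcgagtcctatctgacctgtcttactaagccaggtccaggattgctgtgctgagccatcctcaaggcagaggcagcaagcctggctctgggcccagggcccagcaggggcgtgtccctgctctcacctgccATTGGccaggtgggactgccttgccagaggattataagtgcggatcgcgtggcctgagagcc
Ahcy (chr2:155074498-155074747): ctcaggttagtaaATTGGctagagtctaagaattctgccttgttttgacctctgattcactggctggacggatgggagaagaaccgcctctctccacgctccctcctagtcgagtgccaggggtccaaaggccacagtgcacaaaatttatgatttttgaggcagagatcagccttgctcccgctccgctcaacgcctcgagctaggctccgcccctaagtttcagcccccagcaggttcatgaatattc
In Got1 the capitals mark 5 matches of CCAAT or its reverse complement and 1 of TGATGNAA, read here as its reverse complement at -102 to -95, directly beside but not overlapping a CCAAT match. Gnmt and Ahcy have 1 CCAAT match each. Over all 32841 promoter windows of this length 33.9% held CCAAT and 3.45% held TGATGNAA. Among the 38 members 19 held CCAAT, 1 held TGATGNAA, 4 held AGAACA (16.1% of all promoters), 4 held TGACG (17.8%), 5 held TATAAA (12.4%) and 1 held CAAAGTCCA (0.384%). A match is a stretch of letters and not a site shown to be bound.

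Around the pathway, F1 males also had more Foxo3, a transcription factor that insulin holds back, than inbred animals, and less Fgf21. Foxo3 had 90.9, 74.5 and 99.3 CPM in matBFMI 1 to 3 and 75.6, 85.3 and 79.5 CPM in patBFMI 1 to 3, against 49.1 and 42.9 CPM in the BFMI female and male and 58.7 and 60.6 CPM in the B6N female and male (log2 fold change 0.73 ± 0.12 (SE), adjusted p = 0.017 by edgeR), the only call among 15 regulators. Fgf21 had 4.08, 4.63 and 7.54 CPM in matBFMI 1 to 3 and 1.71, 2.92 and 2.74 CPM in patBFMI 1 to 3, against 5.50 and 13.8 CPM in the BFMI female and male and 2.05 and 8.97 CPM in the B6N female and male (log2 fold change -1.61 ± 0.23 (SE), adjusted p = 0.013 by edgeR), the only call among 13 genes of the amino acid shortage response, and the groups overlap. Among 61 other genes of amino acid breakdown 2 were called higher, Shmt1 (log2 fold change 0.61 ± 0.11 (SE), adjusted p = 0.025) and Kyat1 (0.55 ± 0.11 (SE), adjusted p = 0.030), and among 19 carriers Slc43a1 was (0.97 ± 0.21 (SE), adjusted p = 0.044), each by edgeR. Kupffer cell and macrophage markers were lower in F1 males, with 11 of 11 negative and 4 called, and sums of 224 to 298 CPM in F1 males and 270 to 448 CPM in inbred animals. Hepatocyte markers had 6 of 10 positive and 0 called (1 at an unadjusted p under 0.05), with sums of 73839 to 91139 CPM in F1 males and 84312 to 106637 CPM in inbred animals. Of the pancreatic acinar markers 4 of 5 were called lower in F1 males. All 6 cholangiocyte markers (1 called), all 5 lymphocyte markers and all 3 adipocyte markers had a negative log2 fold change, and 5 of 8 endothelial and 6 of 8 stellate cell markers a positive one (4 and 1 higher at an unadjusted p under 0.05). The part of these cell types in the result was not tested.

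The last comparison, females against males, rests on the 4 inbred animals. Lane 1 held the BFMI male alone, and lane 4 held both females and the B6N male. Lane and sex therefore cannot be fully told apart. Of the 51 members only Got1 passed, which is 1.96% of them, against 0.556% of all 19974 genes (0.31% higher and 0.245% lower) by edgeR. At an unadjusted p under 0.05 stood 19 members (37.3%), against 7.8% of all genes. Got1 had 293 and 329 CPM in the BFMI and B6N females, against 110.2 and 125 CPM in the BFMI and B6N males, a log2 fold change of 1.48 ± 0.25 (SE), adjusted p = 0.033 by edgeR. Both females were above both males, and the 6 F1 males, at 186 to 345 CPM (median 269 CPM), lay above both inbred males. The call was lost without matBFMI 2 or patBFMI 3 (adjusted p 0.065 and 0.054) and without any of the 4 inbred libraries (0.14 to 0.29), while the log2 fold change stayed at 1.41 to 1.54.

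Many members had higher values in both females without passing. The log2 fold change was positive for 40 members, against 54.7% of all genes, and its median was 0.24, against 0.03 for all genes. Libraries of the inbred females and males did not overlap for 20 members, against 24.4% of all genes. The females were higher for 18 of them (9.75% of all genes) and lower for 2 (14.6% of all genes). Next to Got1, Hpd had 1723 and 1624 CPM in the BFMI and B6N females, against 1100.0 and 1255 CPM in the BFMI and B6N males (log2 fold change 0.59 ± 0.11 (SE), adjusted p = 0.057 by edgeR). Afmid had 26.9 and 19.6 CPM in the BFMI and B6N females, against 19.5 and 13.4 CPM in the BFMI and B6N males (log2 fold change 0.58 ± 0.12 (SE), adjusted p = 0.086 by edgeR). Cps1 had 5450.5 and 5538 CPM in the BFMI and B6N females, against 2552 and 4927 CPM in the BFMI and B6N males (log2 fold change 0.71 ± 0.17 (SE), adjusted p = 0.13 by edgeR). Without the B6N female or the B6N male Cps1 gave 1.10. Each of these values rests on the same pair, the BFMI female of lane 4 against the BFMI male of lane 1. Values of 5 of the 6 urea cycle genes were higher in both females than in both males. Csad and Sdsl were the 2 members lower in both females, with -1.46 and -0.43 as log2 fold changes. DESeq2 called 8 members, all higher in females. The share of all genes it called is not given here, so this count has no background beside it. Csad was called lower in females by edgeR with the inbred libraries only (log2 fold change -1.47) and without a filter (-1.53). Beside these values, all 5 pancreatic acinar markers had a positive log2 fold change (1 called) and all 5 blood cell markers a negative one (1 called), and their part was not tested.

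An interaction of strain and sex was fitted in edgeR after the data were seen. Each strain and sex has 1 animal, so the spread in this fit comes from the F1 males, the values rest on single animals, and the BFMI male was alone on its lane. No member passed (0 of 51, with 6 of 19974 genes in all), and 5 members had an unadjusted p under 0.05. The smallest p among them were those of Cps1, with an interaction of 0.78 ± 0.20 (SE, log2, adjusted p = 0.34 by edgeR), Ivd, with 0.83 ± 0.25 (SE, adjusted p = 0.46), and Tat, with -1.25 ± 0.47 (SE, adjusted p = 0.57). A positive value means that the difference of the female over the male was larger in BFMI than in B6N. Cps1 and Ivd were lowest in the BFMI male, with Ivd at 154 and 94.7 CPM in the BFMI female and male, against 125 and 151 CPM in the B6N female and male, and Tat was highest in the B6N female.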

How the data were processed

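Liver RNA of 10 mice was sequenced, and groups were taken from the sample records. Raw counts for Ensembl genes and RPKM values, the second computed after quantile normalization, were deposited by the authors. The study's text names BWA for the alignment, whereas the notes on processing list Picard 1.99, Bowtie2 2.2.6, TopHat2 2.10 and Trimmomatic 0.32 with GRCm38. The record of the molecule reads polyA RNA and the protocol a ribosomal RNA removal kit. In each of the tables deposited, 3 columns have no sample record and were not used.

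Counts were tested with the quasi-likelihood test of edgeR 4.0.16 (R 4.3.3) after TMM scaling, with Benjamini-Hochberg adjustment over all genes tested and a threshold of 0.05. The F1 groups were compared in a fit of the 6 F1 libraries (at least 10 counts in at least 3 libraries). The other comparisons came from 1 fit of all 10 libraries with terms for group and sex (at least 10 counts in at least 2 libraries), and F1 males were set against the mean of the strains at the male level. Depth is 46988713 to 96023811 assigned reads per library, and precision is given as the SD over animals or the SE of the fit. The labels name separate animals. CPM are scaled over 10 libraries, so a ratio of printed CPM can differ from the F1 fit by up to 0.08 on the log2 scale. Deposited RPKM served to compare levels between genes, and were tested with limma 3.58.1 as an alternative on log2 values with pseudocounts of 1 and 0.1. DESeq2 1.42.0, other scalings and filters, an offspring block and leaving out each library were further alternatives. Transcripts were compared with BLAST 2.17.0 (at least 95% identity over at least 300 bases, and over at least 1000 bases for copies whose counts were added). Matplotlib 3.10.9 and pandas 2.3.3 ran under Python 3.11.15, and the pipeline was tested on simulated data. Positions are of GENCODE M21 (GRCm38).

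The members and lists were chosen with earlier results of these data known. Values in every library are given for each member called in a comparison, up to 12, and for the F1 groups for members with an unadjusted p under 0.05. Where none is called the 3 with the smallest p are named, and other members are given by pathway. Of the other lists, genes that pass or up to 4 with the smallest p are named, and other genes were chosen after their values were seen. Rhbg is not analysed here. Another gene of these lists is counted but not reported by name here.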

Additional observations from a re-analysis of the deposited data

How the results depend on the processing

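Between matBFMI and patBFMI, where 0 members were called, DESeq2 called 1 and edgeR without a filter on low counts called 2, and leaving out 1 library always gave 0. The log2 fold change of Cps1 reversed to 0.37 on the deposited RPKM, with a pseudocount of 1 or 0.1 and with or without a filter, and the cause was not tested. Between BFMI and B6N, with 5 members called, DESeq2 called 10, and leaving out 1 library gave 3 to 5. For F1 males against the inbred mean, with 8, DESeq2 called 22 and edgeR without a filter 16, and leaving out 1 library gave 0 to 13. For females against males, with 1, DESeq2 called 8, and 2 were called with library size only, without a filter, with at least 50 counts or with the 4 inbred libraries only, while leaving out 1 library gave 0 to 1 (Cps1 and not Got1 without either B6N library). The median log2 fold change of the members kept its sign for F1 males against the inbred mean (0.23 to 0.45) and for females against males (0.11 to 0.35) under the alternatives run, and did not for BFMI against B6N (-0.03 to 0.24) and for matBFMI against patBFMI (-0.03 to 0.10). With the offspring number as a replicate block, 0 members and 175 of 16797 genes were called between the F1 groups, against 0 members and 24 genes without it. Offspring of the same number correlated in their deviations from the group means at 0.30, -0.06 and 0.10, and not every library correlated best with its own number, so the numbers were not taken to pair the animals. With the copies added, counts of calls were 0, 5, 9 and 1 in the order of the comparisons above. The share of all genes that DESeq2 called between BFMI and B6N is not given here. The 10 members it called there therefore have no background beside them. With 1 animal of each sex per strain, leaving out an inbred library leaves a strain with a lone animal that is assumed to vary like the other groups. A strain or sex contrast in such a fit rests on 1 pair of inbred animals. Over all genes, the 24 calls between the F1 groups became 305 with DESeq2, 696 without a filter, 56 with library size only, 15 with at least 50 counts, 12 in a fit of all 10 libraries, 2 on RPKM with a pseudocount of 1 or 0.1 and 0 on unfiltered RPKM, and 7 to 63 without 1 library. The 1332 calls between BFMI and B6N became 811 with males only and 536 to 1523 without 1 library. The 410 calls of F1 males against the inbred mean became 871 with DESeq2, 1410 without a filter and 13 to 937 without 1 library, and the 111 calls of females against males 384, 582 and 38 to 156 under the same settings and 419 with the inbred libraries only.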

Other observations

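Of the genes known to follow glucocorticoids and glucagon, Igfbp1 and Lpin1 were called between the strains. Igfbp1, a liver protein that insulin holds down, had 14.8 and 23.9 CPM in the BFMI female and male, against 224 and 66.8 CPM in the B6N female and male (log2 fold change -2.77 ± 0.53 (SE), adjusted p = 0.012 by edgeR). Lpin1, a phosphatidate phosphatase induced on fasting, had 47.4 and 38.3 CPM in the BFMI female and male, against 306 and 198 CPM in the B6N female and male (log2 fold change -2.62 ± 0.40 (SE), adjusted p = 0.0031 by edgeR). Of the 11 genes on that list 0 were called higher and 2 lower in BFMI, and 0 were called between the F1 groups (4 at an unadjusted p under 0.05). In F1 males Igfbp1 had 19.6, 21.4 and 33.2 CPM in matBFMI 1 to 3, against 53.5, 37.2 and 49.8 CPM in patBFMI 1 to 3, with every matBFMI liver below every patBFMI liver (log2 fold change -0.97 ± 0.22 (SE), adjusted p = 0.18 by edgeR).

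Markers of the zones of the liver lobule were set beside the pathway, whose urea cycle genes belong to the periportal zone. Cyp1a2, a pericentral cytochrome, had 258, 243 and 203 CPM in matBFMI 1 to 3 and 332, 372 and 382 CPM in patBFMI 1 to 3, against 172 and 164 CPM in the BFMI female and male and 211 and 186 CPM in the B6N female and male (log2 fold change of F1 males over the inbred mean 0.74 ± 0.13 (SE), adjusted p = 0.022 by edgeR). Of the 8 pericentral markers 6 had a positive log2 fold change in this comparison and 1 passed. Of the 8 periportal markers, which include Cps1, Ass1, Hal, Sds and Gls2 of the 51 genes, also 6 were positive and 1 passed. Those members were all positive, and the periportal marker that passed was Cps1. The 2 negative periportal markers lay outside the 51 genes. The periportal count therefore mostly repeats the values of the members. Between BFMI and B6N 2 of the pericentral and 3 of the periportal markers were positive, and between matBFMI and patBFMI 3 and 5 were.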
